A study of Homo sapiens with 3 samples.

Results

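The keratin gene family was examined in RNA-seq libraries of the human oral squamous cell carcinoma (OSCC) line CAL27 and of a pair of drug-resistant lines derived from it. Members were all gene symbols of the count table made of KRT, a number and at most 1 further letter, without keratin-associated proteins and pseudogenes, which gave 55 of 19220 genes. CAL27 cells were parental and kept without drug, CAL27/5FU cells were resistant to 5-fluorouracil (5FU, an antimetabolite that blocks thymidylate synthase) and kept in 10 μM 5FU, and CAL27/OXA cells were resistant to OXA and kept in 10 μM OXA. All cells were grown in high-glucose DMEM with serum, and the labels name no engineered allele. Resistance to 5FU had been raised by slowly increasing the drug in culture, and how CAL27/OXA cells were made is not given in the sources used here. Each line is 1 line grown under its drug, so long culture and the drug in the medium cannot be told apart from resistance.

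Keratins build the intermediate filaments of epithelial cells. Each filament is an obligate heteropolymer of a type I and a type II keratin, and the partners are expressed in characteristic pairs. KRT5 and KRT14 mark the basal layer of stratified epithelia such as oral mucosa, KRT8 and KRT18 the simple epithelia of ducts and glands, and KRT6, KRT16 and KRT17 are induced by wounding and in carcinomas. KRT1 with KRT10 and KRT4 with KRT13 follow in the differentiating layers of skin and oral mucosa, and the hair keratins make up the hair shaft.

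Each line had 1 library, so differences between lines could not be set against a spread between replicates, and no p-value is given. Where 3 values follow each other without names, they stand for CAL27, CAL27/5FU and CAL27/OXA cells in this order, and 2 log2 ratios stand for CAL27/5FU and CAL27/OXA against CAL27 cells. The libraries held 41786182 counts for CAL27 cells, 37297713 for CAL27/5FU and 43455488 for CAL27/OXA cells. Counts were scaled to library size by TMM, a ratio of scaled counts is given on the log2 scale, and past 2-fold means a ratio above 2 in either direction. Ranges in brackets are exact 95% intervals on the pair of counts and cover counting error only. FPKM, the deposited value per length of gene and library size, was used wherever levels of different genes were compared. These were bulk libraries, so fewer cells of a type and less RNA per cell cannot be told apart.

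The stress keratins KRT6A, KRT6B and KRT6C are near copies of each other, and the sequence decides how well short reads can be assigned to them. Their coding sequences were 97.5% (KRT6A and KRT6B), 97.9% (KRT6A and KRT6C) and 98.5% (KRT6B and KRT6C) identical in GENCODE 29. The 90 bases of exon 2 of 9 in which they differed most are shown 5′ to 3′ from GRCh38, all on the minus strand of chromosome 12, with the 10 positions that differ in capitals. KRT6A was read at chr12:52491530-52491619, KRT6B at chr12:52450414-52450503 and KRT6C at chr12:52472074-52472163.

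KRT6A: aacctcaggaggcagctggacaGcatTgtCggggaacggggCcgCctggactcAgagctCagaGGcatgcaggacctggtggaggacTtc
KRT6B: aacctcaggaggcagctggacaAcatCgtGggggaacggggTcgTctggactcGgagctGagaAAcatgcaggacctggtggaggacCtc
KRT6C: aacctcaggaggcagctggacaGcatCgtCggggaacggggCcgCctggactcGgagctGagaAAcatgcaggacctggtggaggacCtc

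Of all 100-base stretches of the transcript, 18.2% in KRT6A, 24.6% in KRT6B and 31.7% in KRT6C also occurred in another gene. Counts of these 3 genes are therefore uncertain, and most so for KRT6C. The type I keratins KRT14, KRT16 and KRT17 are less alike, with 88.7% identity between KRT14 and KRT16 and 86.6% between KRT14 and KRT17. Their exon 5 of 8 is shown for the 90 bases with the most differences, on the minus strand of chromosome 17, with the 28 positions that differ among the 3 genes in capitals. KRT14 was read at chr17:41583581-41583670, KRT16 at chr17:41610884-41610973 and KRT17 at chr17:41620996-41621085.

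KRT14: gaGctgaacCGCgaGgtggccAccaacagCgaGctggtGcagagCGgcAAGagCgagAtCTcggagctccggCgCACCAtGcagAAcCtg
KRT16: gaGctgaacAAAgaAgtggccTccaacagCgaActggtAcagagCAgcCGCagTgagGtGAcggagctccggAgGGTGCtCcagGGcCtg
KRT17: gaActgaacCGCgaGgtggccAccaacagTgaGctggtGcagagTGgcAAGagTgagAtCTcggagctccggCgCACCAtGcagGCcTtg

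Only 5.95% of the 100-base stretches of KRT14 and 7.18% of those of KRT16 occurred in another gene, and 0.322% of those of KRT17. Values of these type I keratins thus rest mostly on sequence of their own. KRT81 and KRT86, a pair of type II hair keratins, shared 30.3% and 28.0% of their stretches with another gene and are uncertain like the KRT6 genes. The exons of KRT8 and KRT18 overlap on opposite strands over 525 bases, which is 7.63% of the exon bases of KRT8 and 16.3% of those of KRT18. The strandedness of the counting is not given in the sources used here, so some reads of this pair may have been assigned to the partner. Antisense genes likewise overlap 16.3% of the exon bases of KRT13 and 6.89% of those of KRT7.

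Keratins took up a smaller part of both resistant libraries than of the parental one. They held 644205 counts in CAL27 cells, which is 1.54% of all counts, 186570 in CAL27/5FU cells (0.5002%) and 176908 in CAL27/OXA cells (0.407%). After scaling, the summed counts of the family were 3.47-fold lower in CAL27/5FU cells and 4.15-fold lower in CAL27/OXA cells than in CAL27 cells. Counts were found for 39 of the 55 members in CAL27 cells, for 29 in CAL27/5FU and for 28 in CAL27/OXA cells, whose library was the deepest. Thus the parental library held both the most keratin RNA and the most different keratins.

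The filter on low values, an average of 10 or more counts across libraries, left 24 of the 55 members. In CAL27/5FU against CAL27 cells, 5 of these were higher and 13 lower past 2-fold, where 8.46% of the 13676 genes that passed the same filter were higher and 6.72% were lower. In CAL27/OXA against CAL27 cells, 1 was higher and 14 were lower, beside 6.54% of all tested genes higher and 9.28% lower. The median log2 ratio of the 24 keratins was -1.61 in CAL27/5FU and -2.05 in CAL27/OXA cells, beside -0.0035 and 0.0055 for all tested genes. Both comparisons use the same CAL27 library and are not independent. KRT1 and KRT4, with 0 counts in both resistant lines, lie below either median at their bound too. KRT1, KRT4 and KRT9 passed the filter through the CAL27 library alone and KRT34 through the CAL27/OXA library, since the other libraries averaged under 10 counts. Their direction was thus partly set by the filter, and the counts over the members that passed are a description. Among the 14 keratins with a mean of at least 100 counts, 3 were higher and 8 lower in CAL27/5FU cells, beside 5.29% higher and 4.8% lower of the 11541 genes at that level. In CAL27/OXA cells 0 were higher and 8 lower, beside 4.17% and 7%. KRT86, with 55, 276 and 31 counts, reached this level through the CAL27/5FU library, where it was called higher. KRT13, with 498, 7 and 13 counts, reached it through the CAL27 library and was called lower in both lines. The counts at this level are therefore a description too.

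**Figure D1:**
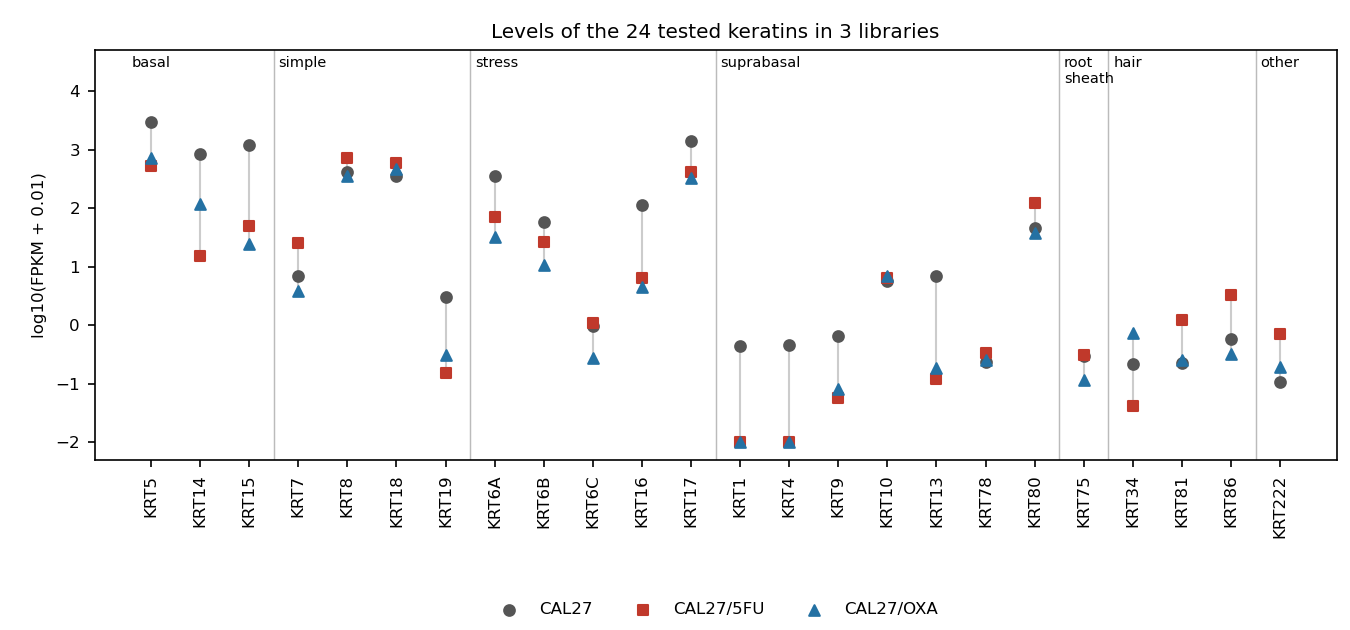
Level of each of the 24 tested keratins (x axis, grouped by class) as log10 of FPKM plus 0.01 (y axis) in the libraries of CAL27 (circles), CAL27/5FU (squares) and CAL27/OXA cells (triangles), 1 library each. The circle stood highest for all basal keratins and for KRT6A, KRT6B, KRT16 and KRT17, whereas KRT7, KRT8, KRT18 and KRT80 were highest in CAL27/5FU cells.

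The basal keratins were lower in both resistant lines, with KRT14 lowest in CAL27/5FU cells and KRT15 lowest in CAL27/OXA cells. KRT5, the type II keratin of basal cells, had 286124 counts (2973 FPKM) in CAL27 cells, 46083 (536 FPKM) in CAL27/5FU and 72716 (726 FPKM) in CAL27/OXA cells. It ranked 3 among all genes by FPKM in CAL27 cells, 87 in CAL27/5FU and 74 in CAL27/OXA cells. The log2 ratio was -2.64 [-2.66, -2.63] in CAL27/5FU and -2.17 [-2.18, -2.15] in CAL27/OXA cells, so KRT5 remained an abundant transcript in all 3 libraries. KRT14, its type I partner, had 58222 counts (852 FPKM), 948 (15.5 FPKM) and 8423 (118 FPKM). It was 61.6-fold lower in CAL27/5FU cells, a log2 ratio of -5.94 [-6.04, -5.85], and 7.88-fold lower in CAL27/OXA cells, a log2 ratio of -2.98 [-3.01, -2.95]. KRT14 thus had the lowest ratio of the basal keratins in CAL27/5FU cells, and an intermediate level in CAL27/OXA cells.

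KRT15, a type I keratin of basal and hair follicle stem cells, showed the opposite order of the resistant lines. It had 92433 counts (1202 FPKM) in CAL27 cells, 3388 (49.4 FPKM) in CAL27/5FU and 1937 (24.2 FPKM) in CAL27/OXA cells. The log2 ratio was -4.78 [-4.83, -4.73] in CAL27/5FU and -5.76 [-5.83, -5.70] in CAL27/OXA cells, the lowest of the basal keratins in the latter. As KRT5 was less reduced than KRT14, the ratio of KRT5 to KRT14 by FPKM was 3.49 in CAL27 cells, 34.5 in CAL27/5FU and 6.13 in CAL27/OXA cells. The basal type II keratin therefore outnumbered its classical partner in each library, and by the widest margin in CAL27/5FU cells.

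KRT5 is the marker with an entry among the RefSeq promoters, and the 250 bases before its start are shown because its transcript was the most abundant keratin of CAL27 cells. They lie at chr12:52520395-52520644 (GRCh38.p14, minus strand), and the capitals mark a p53-family half-site at positions -97 to -88 relative to the start.

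KRT5: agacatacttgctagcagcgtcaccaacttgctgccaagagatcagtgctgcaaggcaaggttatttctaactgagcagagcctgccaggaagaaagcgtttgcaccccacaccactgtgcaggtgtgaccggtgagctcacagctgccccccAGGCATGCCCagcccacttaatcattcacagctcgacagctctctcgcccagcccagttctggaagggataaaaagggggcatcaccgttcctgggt

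The p53-family half-site was added to the motifs after this sequence had been seen. In windows of 250 bases before to 50 bases after the start, searched on both strands, it was found in 6.63% of 35116 promoters and in 8 of the 34 keratins with an entry. TATAAA was found in 21 of the 34 keratins and in 11.5% of all promoters, the AP-2 motif GCCNNNGGC in 5 and in 23.2%, and the Sp1 motif GGGCGG in 6 and in 44.95%. The AP-1 motif TGANTCA was found in 0 of the 34 and in 7.71% of all promoters. None of these 4 motifs was in the KRT5 window, so nothing there overlapped the half-site. TP63, the p53-family factor of basal epithelial cells, had 23645, 9759 and 29498 counts in the order CAL27, CAL27/5FU and CAL27/OXA, a log2 ratio of -1.28 [-1.32, -1.25] in CAL27/5FU and 0.13 [0.10, 0.15] in CAL27/OXA cells.

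The stress keratins were lower in both resistant lines, apart from KRT6C in CAL27/5FU cells. KRT6A, a type II keratin of wounded epidermis, had 36872 counts (360 FPKM) in CAL27 cells, 6617 (72.4 FPKM) in CAL27/5FU and 3403 (32.0 FPKM) in CAL27/OXA cells. Its log2 ratio was -2.48 [-2.52, -2.45] in CAL27/5FU and -3.63 [-3.68, -3.58] in CAL27/OXA cells. KRT6B had 5503, 2308 and 1052 counts, with log2 ratios of -1.26 [-1.33, -1.19] and -2.57 [-2.67, -2.48]. Both were lowest in CAL27/OXA cells. KRT6C had 93, 92 and 26 counts, which is a log2 ratio of -0.02 [-0.45, 0.41] in CAL27/5FU and -1.94 [-2.72, -1.39] in CAL27/OXA cells.

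Of the type I stress keratins, KRT16 fell much further than KRT17 in both resistant lines. KRT16, a partner of KRT6A, had 8146 counts (113 FPKM) in CAL27 cells, 411 (6.41 FPKM) in CAL27/5FU and 343 (4.59 FPKM) in CAL27/OXA cells. The log2 ratio was -4.31 [-4.46, -4.17] in CAL27/5FU and -4.75 [-4.92, -4.60] in CAL27/OXA cells. KRT17, a keratin of hair follicles, wounds and many squamous carcinomas, had 93873 counts (1427 FPKM), 24276 (413 FPKM) and 22967 (336 FPKM), a log2 ratio of -1.96 [-1.98, -1.94] and -2.22 [-2.24, -2.20]. KRT17 was the second keratin by FPKM in CAL27 cells and the fourth in both resistant lines, so it stayed a main keratin throughout. The ratio of KRT6A to KRT16 by FPKM was 3.17 in CAL27 cells, 11.3 in CAL27/5FU and 6.96 in CAL27/OXA cells, and as for KRT5 and KRT14 it was lowest in the parental line.

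The simple epithelial pair KRT8 and KRT18 stayed within 2-fold of CAL27 cells in both resistant lines. KRT8 had 31681 counts (415 FPKM) in CAL27 cells, 49766 (730 FPKM) in CAL27/5FU and 28662 (361 FPKM) in CAL27/OXA cells. KRT18 had 21815 counts (361 FPKM), 31868 (592 FPKM) and 29852 (476 FPKM). Both were highest in CAL27/5FU cells. For KRT8 the log2 ratio was 0.64 [0.62, 0.67] in CAL27/5FU and -0.33 [-0.36, -0.31] in CAL27/OXA cells, and for KRT18 it was 0.54 [0.52, 0.56] and 0.26 [0.24, 0.29]. The ratio of KRT8 to KRT18 by FPKM was 1.15, 1.23 and 0.758, a narrower range than for KRT5 to KRT14, for KRT6A to KRT16 and for KRT17 to KRT6B, the last of which was 24.7, 15.2 and 31.7. KRT8 was the fifth keratin by FPKM in CAL27 cells and the first in CAL27/5FU cells.

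The other simple keratins were much less abundant and went different ways. KRT7, a type II keratin of ducts, had 493 counts (6.93 FPKM) in CAL27 cells, 1609 (25.3 FPKM) in CAL27/5FU and 285 (3.85 FPKM) in CAL27/OXA cells. The log2 ratio was 1.70 [1.55, 1.85] in CAL27/5FU and -0.97 [-1.20, -0.77] in CAL27/OXA cells, so KRT7 stood highest in the line kept in 5FU. KRT19, a type I keratin without a tail domain, had 184, 8 and 19 counts, with log2 ratios of -4.24 [-5.76, -3.52] and -3.32 [-4.23, -2.78]. KRT23 had 13, 2 and 0 counts and KRT20, the keratin of intestinal epithelium, had 0 in all 3 libraries.

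The makeup of the keratin RNA shifted from basal towards simple keratins in both resistant lines. Basal keratins made up 64.2% of the summed keratin FPKM in CAL27 cells, 23.1% in CAL27/5FU and 40.6% in CAL27/OXA cells. Simple keratins made up 10.0%, 51.7% and 39.3%. The share of stress keratins moved less, with 25.0%, 20.0% and 17.9%. The sum itself was 7834 FPKM in CAL27 cells, 2607 in CAL27/5FU and 2140 in CAL27/OXA cells, so a larger share of simple keratins came with a smaller total. KRT5, KRT14, KRT6A and KRT17 together made up 71.6% in CAL27 cells, 39.8% in CAL27/5FU and 56.7% in CAL27/OXA cells. Type II keratins reached 0.972 times the summed FPKM of type I keratins in CAL27 cells, 1.41 times in CAL27/5FU and 1.21 times in CAL27/OXA cells.

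**Figure D2:**
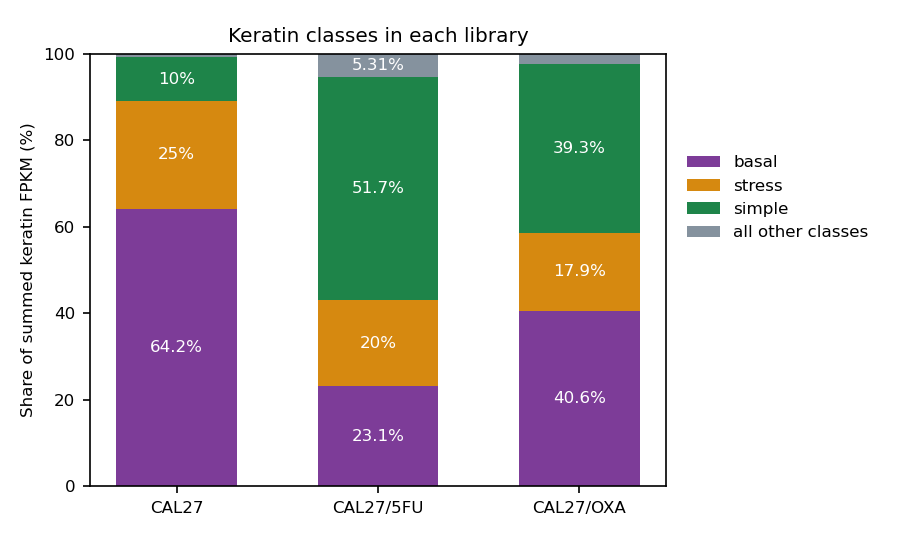
Share of the summed keratin FPKM (y axis, percent) held by basal, stress, simple and all other keratins in each library (x axis), 1 library per line. Basal keratins fill 64.2% of the CAL27 bar and 23.1% of the CAL27/5FU bar, and simple keratins 10.0% and 51.7%.

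Among the keratins of differentiating layers, the oral pair KRT4 and KRT13 had few or no counts in the resistant lines. KRT13, the type I keratin of this pair, had 498 counts in CAL27 cells, 7 in CAL27/5FU and 13 in CAL27/OXA cells. The log2 ratio was -5.82 [-7.48, -5.11] in CAL27/5FU and -5.23 [-6.37, -4.66] in CAL27/OXA cells. KRT4 had 40 counts in CAL27 cells and 0 in both resistant lines, which is at least 13.4-fold lower in CAL27/5FU and at least 15.2-fold lower in CAL27/OXA cells against a floor of 3 counts per library. KRT1, the type II keratin of the epidermal pair, had 44, 0 and 0 counts, at least 14.7-fold and 16.7-fold lower. KRT9, a keratin of palm and sole skin, had 62, 4 and 7 counts, with log2 ratios of -3.44 [-5.88, -2.53] and -2.99 [-4.71, -2.21]. These 4 low keratins were highest in CAL27 cells. For KRT1, KRT4 and KRT9 this was partly set by the filter, which they passed through the CAL27 library alone.

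KRT10, the type I partner of KRT1, differed from them. It had 509 counts in CAL27 cells, 509 in CAL27/5FU and 658 in CAL27/OXA cells, a log2 ratio of -0.01 [-0.19, 0.17] and 0.18 [0.01, 0.35], and the sign in CAL27/5FU cells depended on the scaling. KRT78 had 26, 33 and 29 counts and was within 2-fold in both lines. KRT80, a type II keratin of many epithelia, had 7353 counts (45.4 FPKM) in CAL27 cells, 18184 (126 FPKM) in CAL27/5FU and 6359 (37.7 FPKM) in CAL27/OXA cells. Its log2 ratio was 1.30 [1.26, 1.34] in CAL27/5FU and -0.40 [-0.45, -0.35] in CAL27/OXA cells. KRT80 was thus the most abundant keratin that was past 2-fold higher in either resistant line.

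**Figure D3:**
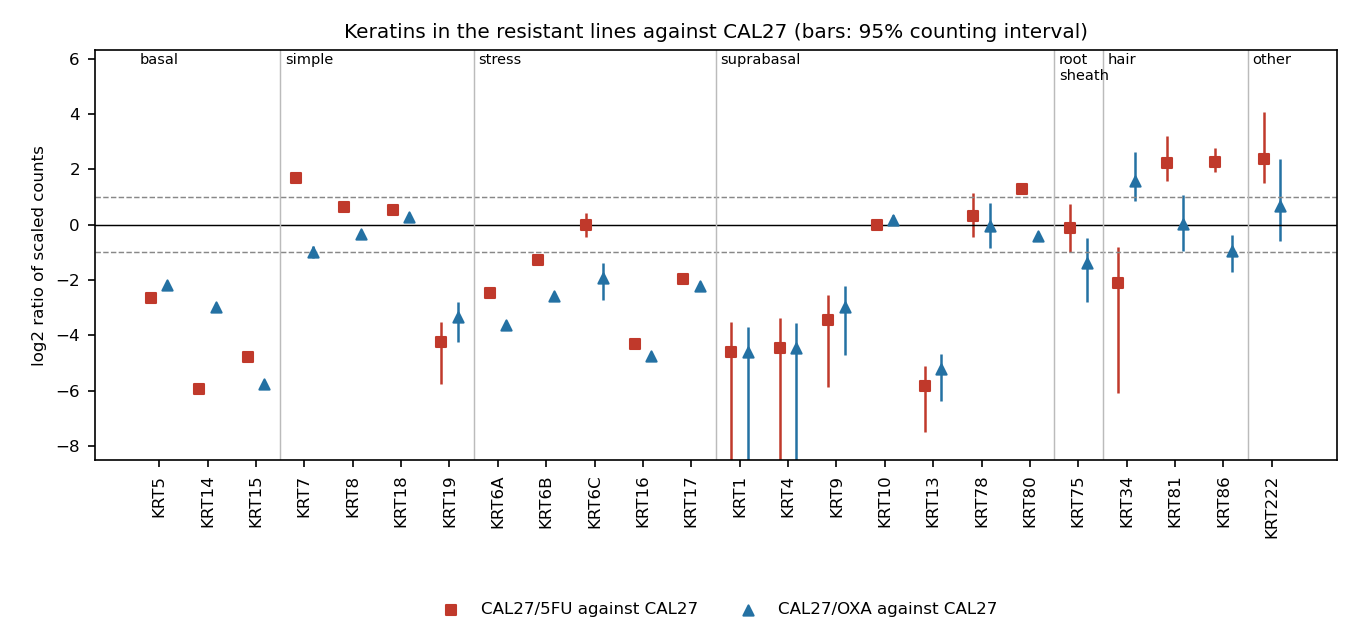
Log2 ratio of TMM-scaled counts against CAL27 (y axis) for the 24 tested keratins (x axis, by class) in CAL27/5FU (squares) and CAL27/OXA cells (triangles), with exact 95% counting intervals as bars and dashed lines at 2-fold. The points of KRT1 and KRT4, with 0 counts in both resistant lines, depend on the prior count and their bars run off the plot, while KRT7, KRT80, KRT81, KRT86 and KRT222 lie above the upper line in CAL27/5FU cells only.

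Hair keratins were detected at low counts in every library. KRT86 had 55 counts in CAL27 cells, 276 in CAL27/5FU and 31 in CAL27/OXA cells, a log2 ratio of 2.28 [1.90, 2.77] and -0.97 [-1.70, -0.36]. KRT81, which shares much of its sequence, had 17, 87 and 20 counts, giving a log2 ratio of 2.23 [1.59, 3.19] and 0.04 [-0.96, 1.07]. Both were highest in CAL27/5FU cells. KRT34, a type I hair keratin, had 15 counts in CAL27 cells, 2 in CAL27/5FU and 55 in CAL27/OXA cells, with log2 ratios of -2.12 [-6.09, -0.81] and 1.57 [0.84, 2.62], and was the 1 tested keratin past 2-fold higher in CAL27/OXA cells, the library through which it passed the filter. The 14 other hair keratins had 0 to 18 counts and were not tested. Hair keratins together made up 0.027% of the keratin FPKM in CAL27 cells, 0.182% in CAL27/5FU and 0.074% in CAL27/OXA cells.

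Of the remaining members, KRT75, a keratin of the hair follicle companion layer, had 26, 24 and 10 counts, with log2 ratios of -0.11 [-0.99, 0.74] and -1.39 [-2.78, -0.47]. KRT222, a keratin-like gene without the full structure of the family, showed 7, 45 and 14 counts, with log2 ratios of 2.39 [1.52, 4.07] and 0.67 [-0.59, 2.36]. Of its 100-base stretches, 56.5% also occurred in another gene. The 31 members under the filter had between 0 and 18 counts in any library. Of the 55 members, 12 had 0 counts in all libraries, among them KRT24, KRT76, KRT77 and the inner root sheath keratins KRT25, KRT26, KRT27 and KRT28. Another 10 had counts in CAL27 cells alone, from 1 for KRT71 and KRT85 to 44 for KRT1, and the share of all genes with this pattern was not computed. KRT3, KRT12 and KRT83 had 6, 2 and 8 counts in CAL27/5FU cells and 0 in the other libraries.

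The resistant lines also differed directly from each other. In CAL27/OXA against CAL27/5FU cells, 2 of the 24 tested keratins were higher and 9 lower past 2-fold, beside 4.18% of all tested genes higher and 8.38% lower, and the median log2 ratio was -0.39 beside 0.0079. The higher members were KRT14, with a log2 ratio of 2.97 [2.87, 3.07], and KRT34, with 3.69 [2.68, 7.68]. KRT34 passed the filter through the CAL27/OXA library, so its direction was partly set by the filter. The lower ones among the keratins with a mean of at least 100 counts were KRT6A at -1.14 [-1.20, -1.08], KRT6B at -1.31 [-1.42, -1.21], KRT7 at -2.67 [-2.87, -2.50], KRT80 at -1.70 [-1.74, -1.66] and KRT86 at -3.25 [-3.92, -2.80]. KRT86, with 55, 276 and 31 counts, reached that mean through the CAL27/5FU library, so its direction here was partly set by that level. It also shares sequence with KRT81. Of the 9 lower members, 8 were type II keratins and the other was KRT222, and 0 of 10 tested type I keratins were lower past 2-fold. The ratios of KRT15 at -0.99 [-1.07, -0.91] and of KRT8 at -0.98 [-0.9996, -0.96] lay just within 2-fold.

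The order of the genes along the chromosomes showed runs of neighbours with like ratios. The type II genes and KRT18 form a cluster of 27 keratins over 784 kb of chromosome 12, from 52168996 to 52952901, and the other type I genes and KRT222 a cluster of 28 keratins over 970 kb of chromosome 17, from 40654665 to 41624842 (GRCh38, GENCODE 29). KRT5 (ENSG00000186081.11) spans chr12:52514575-52520687, KRT6A (ENSG00000205420.10) chr12:52487174-52493257, KRT14 (ENSG00000186847.5) chr17:41582279-41586921 and KRT17 (ENSG00000128422.16) chr17:41619441-41624842, all on the minus strand. On chromosome 17, the 7 neighbouring members KRT13, KRT15, KRT19, KRT9, KRT14, KRT16 and KRT17 were all lower past 2-fold, with log2 ratios of -5.94 to -1.96 in CAL27/5FU and of -5.76 to -2.22 in CAL27/OXA cells. This run holds basal, stress, simple and differentiation keratins alike. On chromosome 12, KRT80, KRT7, KRT86 and KRT81 at 1 end of the cluster had log2 ratios of 1.30 to 2.28 in CAL27/5FU and of -0.97 to 0.04 in CAL27/OXA cells. KRT5 and the KRT6 genes lie further inside, and KRT8 and KRT18 at the opposite end. These runs were picked after their values had been seen, so they are a description. Among all tested genes, 6.72% were lower and 8.46% higher past 2-fold in CAL27/5FU cells, and 9.28% lower and 6.54% higher in CAL27/OXA cells. KRT9 passed the filter through the CAL27 library alone, so its direction was partly set by the filter.

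The genes around the clusters were compared in the same way. Past 2-fold, 8.46% of all tested genes were higher and 6.72% lower in CAL27/5FU cells, and 6.54% and 9.28% in CAL27/OXA cells. Of the 5 nearest tested genes on each side of the chromosome 12 cluster, 1 of 10 in CAL27/5FU and 0 of 10 in CAL27/OXA cells were past 2-fold, with a median log2 ratio of -0.17 in both. Around the chromosome 17 cluster, 4 of 10 were past 2-fold in each line, with medians of -0.10 and -0.11. These were IGFBP4, with log2 ratios of 3.31 and 1.79, TNS4 with -1.55 and -1.64, HAP1 with -4.16 and -3.61, and JUP, which codes for the desmosomal protein plakoglobin, with -1.71 and -1.55. C12orf80, between KRT80 and KRT7, had log2 ratios of 2.72 in CAL27/5FU and 0.47 in CAL27/OXA cells.

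**Figure D4:**
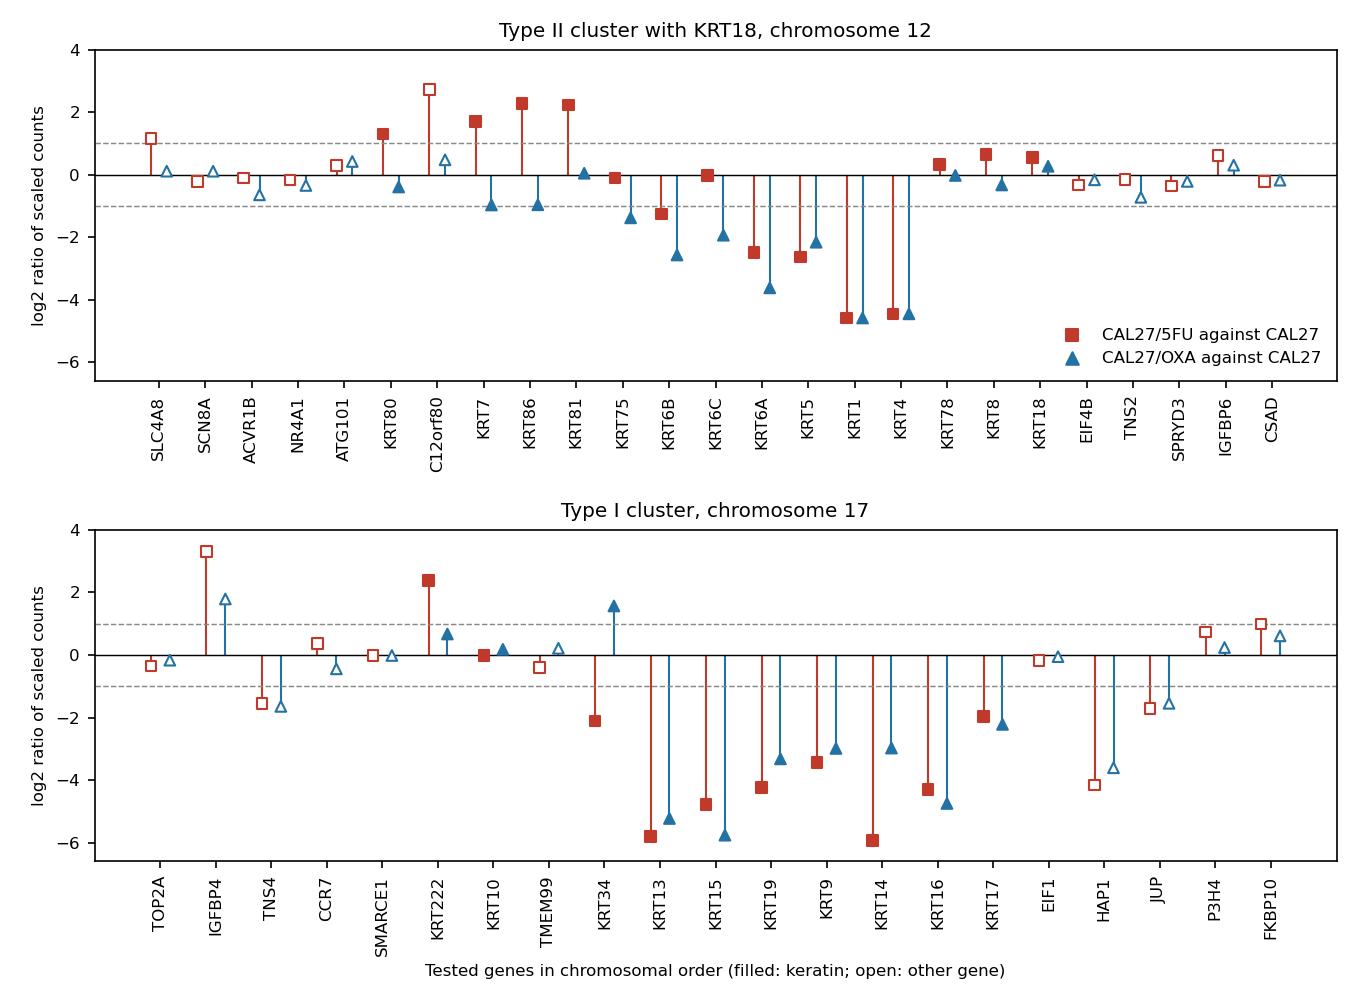
Log2 ratio of TMM-scaled counts against CAL27 (y axis) of tested genes in chromosomal order (x axis) in and around the keratin clusters of chromosome 12 (top) and chromosome 17 (bottom), for CAL27/5FU (squares) and CAL27/OXA cells (triangles). Filled symbols are keratins and open symbols other genes, and the run from KRT13 to KRT17 lies below the lower 2-fold line in both resistant lines.

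Of 10 genes for proteins that link keratin filaments to cell junctions or other structures, 0 were higher and 4 lower past 2-fold in CAL27/5FU cells, with a median log2 ratio of -0.73, beside 8.46% of all tested genes higher and 6.72% lower. In CAL27/OXA cells 0 were higher and 5 lower, with a median of -0.996, beside 6.54% and 9.28%. PKP1, the desmosomal plakophilin 1 of stratified epithelia, had 10588, 507 and 267 counts and log2 ratios of -4.39 [-4.52, -4.26] and -5.49 [-5.68, -5.32]. JUP had 47950, 14677 and 18727 counts, and DSP, which codes for desmoplakin, had 32970, 14730 and 16589 counts with log2 ratios of -1.17 and -1.18. EPPK1, which codes for epiplakin, had log2 ratios of -1.14 and -2.33, and PPL, which codes for periplakin, -0.81 and -1.55. The linkers PLEC, DST, PKP3 and EVPL were within 2-fold in both lines, as was PKP2 with log2 ratios of 0.57 and 0.53. The same shares of all tested genes stand beside the counts of the lists that follow.

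Of 10 genes for proteins that organize keratin filaments or are named after them, 9 were tested. Of these, 3 were lower past 2-fold in each line and 0 higher, with medians of -0.36 in CAL27/5FU and -0.61 in CAL27/OXA cells. HSPB1, a small heat shock protein that binds filaments, had log2 ratios of -1.90 and -1.81, and FAM83H, which recruits a kinase to keratin filaments, -1.12 and -1.30. SFN, the epithelial 14-3-3 protein, was at -1.08 and 0.08, and FLG, which codes for the filament-aggregating protein filaggrin, at -0.36 and -2.79.

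Of 16 other intermediate filament genes, 11 were tested, with medians of -0.18 and -0.12. In CAL27/5FU cells 2 were higher and 3 lower, and in CAL27/OXA cells 2 were higher and 1 lower. VIM, which codes for vimentin, the intermediate filament of mesenchymal cells, had 27 counts (0.302 FPKM) in CAL27 cells, 863 (10.8 FPKM) in CAL27/5FU and 1395 (15.0 FPKM) in CAL27/OXA cells, with log2 ratios of 4.90 [4.44, 5.60] and 5.41 [4.95, 6.11]. By FPKM, VIM remained far below KRT8 and KRT18 in both resistant lines. NES, which codes for nestin, had log2 ratios of 2.13 and 0.30, the neurofilament genes NEFL and NEFM were at -2.86 and -1.65 in CAL27/5FU and at -0.83 and -0.12 in CAL27/OXA cells, and LMNA, which codes for the nuclear lamins A and C, was at -1.10 and -0.77. In CAL27/OXA cells IFFO1, with 9, 12 and 23 counts, was at 1.02 [-0.0015, 2.46], an interval that reaches 0. SYNC, with 2 counts in CAL27/OXA cells and tested through the CAL27 library, was at -2.77 [-6.84, -1.70] there.

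Of 14 transcription factors of epidermal keratin genes, 0 were higher and 9 lower past 2-fold in CAL27/5FU cells, with a median log2 ratio of -1.37, beside 6.72% of all tested genes lower. In CAL27/OXA cells 0 were higher and 7 lower, with a median of -1.16, beside 9.28%. MAF, with 166, 2 and 2 counts, passed the filter through the CAL27 library alone and had log2 ratios of -5.43 [-9.44, -4.51] and -5.52 [-9.62, -4.69]. ZNF750, a factor of epidermal differentiation, was at -3.28 and -3.37, GRHL1 at -2.02 and -3.39, GRHL3 at -1.76 and -1.42, and OVOL1 at -1.45 and -3.85. Of 7 regulators of hair keratins, 6 were tested, with medians of -1.05 and 0.39, and 2 were higher and 3 lower in CAL27/5FU and 2 higher and 1 lower in CAL27/OXA cells. LEF1, the nuclear partner of β-catenin, had 57, 327 and 357 counts and log2 ratios of 2.47 [2.10, 2.95] and 2.42 [2.05, 2.89]. GATA3 was at 1.496 and 1.08, MSX2 at -2.68 and 0.30, and DLX3, with 40, 4 and 2 counts and likewise tested through the CAL27 library alone, at -2.83 [-5.27, -1.86] and -3.52 [-7.61, -2.56]. EDAR, with 12, 2 and 20 counts, passed the filter through the CAL27/OXA library. Its log2 ratios were -1.84 [-5.79, -0.42] and 0.48 [-0.56, 1.71].

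Markers of the labelled cell type and of other cells were checked beside these results. The epithelial genes CDH1 and EPCAM had 13459 to 15076 and 9428 to 12457 counts and were within 2-fold in both lines. So were KRT8 and KRT18 of the same list. TP63, also on it, was lower past 2-fold in CAL27/5FU cells, with a log2 ratio of -1.28, and was at 0.13 in CAL27/OXA cells. The keratinocyte markers KRT5, KRT14, KRT6A and KRT17 were all lower past 2-fold in both lines, as given above. Of 7 fibroblast markers, 5 were detected in CAL27 and 6 in each resistant line, with summed FPKM of 7.51, 11.9 and 14.9. COL1A1, the highest of them by FPKM in CAL27 cells, had 1387, 1068 and 1050 counts, with log2 ratios of -0.38 and -0.59. COL3A1 was at 0 in all libraries, whereas LUM had 120, 414 and 877 counts, COL1A2 90, 300 and 212 and PDGFRB 35, 55 and 76. Of 4 endothelial markers, 3 were detected in CAL27 and all in the resistant lines, with summed FPKM of 0.437, 2.29 and 1.06. CDH5 had 43, 338 and 163 counts and KDR 0, 3 and 6, whereas VWF had 44, 19 and 29 and PECAM1 13, 6 and 11. Of 5 leukocyte markers, 4, 4 and 2 were detected, with summed FPKM of 9.74, 22.0 and 5.04, nearly all from CD14 with 637, 1290 and 341 counts, while PTPRC, the pan-leukocyte marker, had 2, 0 and 0. Their part in the keratin ratios was not tested.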

How the data were processed

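RNA-seq of 3 libraries was analysed, 1 each for CAL27, CAL27/5FU and CAL27/OXA cells. RNA was extracted with TRIzol and libraries were made with a NEBNext Ultra RNA kit. The submitters' processing notes name HISAT2 2.0.5, CASAVA 1.8 and the genome GRCh38 (hg38), and the counting tool, annotation and strandedness are not given in the sources used here. The authors deposited a table of read counts per gene without normalization (19220 genes) and a table of FPKM values (19225 genes). A further 3 columns of each table are named like another sample of each line, carry no GEO label in the sources used here and entered no step. Groups came from the sample titles.

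Counts were scaled by TMM (edgeR 4.0.16, R 4.3.3, factors 0.932, 1.05 and 1.02), and log2 ratios were taken between counts scaled to library size (CPM, prior count 2). The 13676 genes averaging 10 or more counts were tested. Intervals are exact 95% Clopper-Pearson intervals on the pair of counts (R 4.3.3), and a count of 0 was bounded with a floor of 3 counts per library. One count stood for 0.0257, 0.0255 and 0.0225 CPM. PCR copies cannot be removed without molecular identifiers, so intervals and floors cover counting error only. With 1 library per line used here, no test across samples was made. The steps were tested on simulated data.

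Members were given full values from a mean of 100 counts on, lower ones by class or by range, and of other genes the members of each list past 2-fold or the 4 largest of them were named. The lists were keratin linkers, filament organizers, other intermediate filaments, epidermal and hair keratin regulators, and fibroblast, endothelial and leukocyte markers. Members and lists were chosen with earlier results of these data known. One gene of the epidermal regulator list is not reported here and was left out of its counts and median. C12orf80 and the runs of neighbouring genes were named after their values were seen. Positions, coding sequences and exon overlaps came from GENCODE 29 (GRCh38), where all 55 members were found, and promoters from RefSeq (GRCh38.p14), where 34 had an entry. The alternatives were scaling by total counts, by the upper quartile or by DESeq2 1.42.0, other filters, prior counts, thresholds and FPKM. Class shares were also taken without length scaling, or without the stress keratins KRT6A, KRT6B, KRT6C, KRT16 and KRT17.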

Additional observations from a re-analysis of the deposited data

Results flagged for a closer look

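In 4 keratins the resistant lines lay on opposite sides of CAL27 cells, with both counting intervals clear of 0 and at least 1 of the ratios past 2-fold. KRT8 also differed in sign with both intervals clear of 0, but within 2-fold. The log2 ratio of KRT7 was 1.70 in CAL27/5FU and -0.97 in CAL27/OXA cells, that of KRT80 was 1.30 and -0.40, and that of KRT86 was 2.28 and -0.97. KRT86 shared 28.0% of the stretches of its transcript with another gene, so its counts are uncertain. KRT34 went the other way, with -2.12 in CAL27/5FU and 1.57 in CAL27/OXA cells, on 15, 2 and 55 counts. KRT34 passed the filter through the CAL27/OXA library, so its direction was partly set by the filter. The share of all tested genes that met the same rule was not computed, so the count of 4 is a description. Each line had 1 library, so the difference between the lines was not tested.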

How the results depend on the processing

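No paired analysis was possible because each line had 1 library, and for the same reason no library could be left out. Single ratios were recomputed for the 14 keratins with a mean of at least 100 counts and not for the other tested keratins. Of 294 recomputed ratios, 202 stayed within their counting interval and 92 moved beyond it, and 0 of those past 2-fold were reversed in sign. Past 2-fold or within it changed for 7 of them, all near 2-fold: KRT86 in CAL27/OXA cells (-1.004 with a prior count of 0.5), and KRT15 and KRT8 in CAL27/OXA against CAL27/5FU cells. The 4 changes of sign were all of KRT10 in CAL27/5FU cells. Scaling by total counts moved the median of all tested genes to 0.17 in CAL27/5FU and 0.14 in CAL27/OXA cells.

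On FPKM with a pseudocount of 1, which draws low genes to 0, the median of the tested keratins was -0.37 in CAL27/5FU and -0.58 in CAL27/OXA cells. At this setting 12 of the 24 tested keratins were past 2-fold in CAL27/5FU cells, with 3 higher and 9 lower. In CAL27/OXA cells 9 were past 2-fold, all lower, and in CAL27/OXA against CAL27/5FU cells 7 were, with 1 higher and 6 lower. Without a filter beyond 1 count, 32, 25 and 20 of 43 keratins were past 2-fold in CAL27/5FU, in CAL27/OXA and between the resistant lines, with medians of -1.39 in CAL27/OXA cells and 0.00 between the resistant lines. The members added by this setting had 0 to 18 counts in any library. Past 2-fold, 8 were higher and 24 lower in CAL27/5FU cells, 2 and 23 in CAL27/OXA cells, and 6 and 14 between the resistant lines. Between these lines, 7 were past 2-fold with a mean of at least 50 counts and 5 were past 4-fold. The number of tested keratins is smaller under the stricter filter. The share of all genes past the threshold at these settings was not computed, so these counts are a description.

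Without scaling by length, basal keratins made up 67.8%, 27.02% and 47.0%, simple keratins 8.41%, 44.6% and 33.2% and stress keratins 22.4%, 18.1% and 15.7% in CAL27, CAL27/5FU and CAL27/OXA cells. Without KRT6A, KRT6B, KRT6C, KRT16 and KRT17, basal keratins made up 85.6%, 28.8% and 49.5% and simple keratins 13.4%, 64.5% and 47.8%. The order of the lines was as before in each class except that this last setting leaves no stress keratin.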
